A study of Homo sapiens with 12 samples.

Results

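The genes of lower glycolysis and lactate export were described across 12 RNA libraries of AsPC-1, an established human pancreatic cancer cell line. The 10 genes were chosen by name: TPI1, GAPDH, PGK1, PGAM1, ENO1, ENO2, PKM, LDHA, LDHB and SLC16A3, out of 57820 gene IDs in the count files. Of these 10, 9 had enough counts to be tested among 16999 tested genes, and LDHB did not. For PKM, all 7 of its splicing events among the 56092 deposited events were read as well. Transfection was with scrambled siRNA (siControl) or with siRNA that targets ARNT (siARNT), and cells were kept either at 21% O2 (normoxia) or at 1% O2 for 24 h (hypoxia), and RNA was taken 48 h after transfection. This gives 4 groups of 3 replicates, lettered A, B and C, named by oxygen and siRNA (normoxia siControl and so on). All groups share the line and the transfection, and the labels name triplicate wells of 1 line, so p-values measure the spread between such wells. Wells were divided after transfection, so a normoxia and a hypoxia library of the same siRNA may come from 1 transfected well, and the labels do not tie letters to wells. The comparisons ask how hypoxia changes these mRNAs and how much of that change is seen when ARNT is knocked down.

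Lower glycolysis turns triose phosphate into pyruvate and yields the ATP of the pathway. Lactate dehydrogenase then reduces pyruvate to lactate, which restores the NAD+ that the GAPDH step uses, and monocarboxylate transporters carry lactate and a proton out of the cell. ARNT is the partner of the HIF alpha subunits, which accumulate when oxygen is low, and several glycolytic genes are textbook targets of this complex, which binds DNA with the core letters ACGTG or GCGTG. ARNT also pairs with other factors, such as the aryl hydrocarbon receptor. In GENCODE 29 (GRCh38) 4 members lie on chromosome 12, at chr12:6533927-6538374 (GAPDH), chr12:6867119-6870948 (TPI1), chr12:6913745-6923698 (ENO2) and chr12:21635342-21757857 (LDHB). The others lie at chr1:8861000-8879250 (ENO1), chr10:97426160-97433441 (PGAM1), chr11:18394388-18408425 (LDHA), chr15:72199029-72231822 (PKM), chr17:82228397-82261129 (SLC16A3) and chrX:77910739-78129296 (PGK1), and counts were made over whole genes.

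The totals of gene counts ran from 38.53 to 84.34 M per library. ARNT, the targeted gene, lay between 60.7 and 72.2 normalized counts per M counts (CPM) in the 6 siControl libraries and between 12.8 and 15.99 CPM in the 6 siARNT libraries, and 21.4% of its siControl level was left in normoxia and 22.2% in hypoxia. All 10 matched markers of pancreatic epithelium had enough counts to be tested, and their summed level was 5940 to 10033 CPM, highest in normoxia siARNT replicate B. In siControl hypoxia 3 of these 10 rose, among them MUC1 (log2 fold change 1.35) and CDH1 (0.6), and none fell. Among all tested genes 10.4% rose and 14.9% fell there. Of 12 matched markers of other cell types none had a mean over 1 CPM and 2 were at 0 in every library, and 4 were tested and none called for hypoxia. Normoxia siARNT replicate B stood apart. Its log2 level rose by 0.461 for each 10 points of gene GC content, relative to the mean of the libraries. The other libraries lay between -0.222 and 0.256, the highest of them being hypoxia siARNT replicate C. The members other than PGK1, LDHA and LDHB are richer in GC than the median tested gene (48.4%). Several log2 fold changes that move with normoxia siARNT replicate B are given with and without it, and its part in them was not tested otherwise.

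In siControl cells all 9 tested members rose in hypoxia, from 1.51-fold for ENO1 to 7.76-fold for ENO2 (edgeR quasi-likelihood test, Benjamini-Hochberg adjusted p under 0.05). Over all tested genes, 10.4% rose in this comparison. The median log2 fold change was 1.08 over the 9 members and 0.022 over all tested genes. The 10 genes together held 0.615 ± 0.0204% of all gene counts in normoxia siControl and 1.39 ± 0.0961% in hypoxia siControl. In siARNT cells the same share was 0.67 ± 0.0867% in normoxia and 0.731 ± 0.0674% in hypoxia (SD, n = 3). By library (A, B and C) it was 0.623, 0.77 and 0.617% in normoxia siARNT and 0.671, 0.719 and 0.804% in hypoxia siARNT. Without normoxia siARNT replicate B the normoxia libraries lay below every hypoxia library. This share was not tested.

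**Figure D1:**
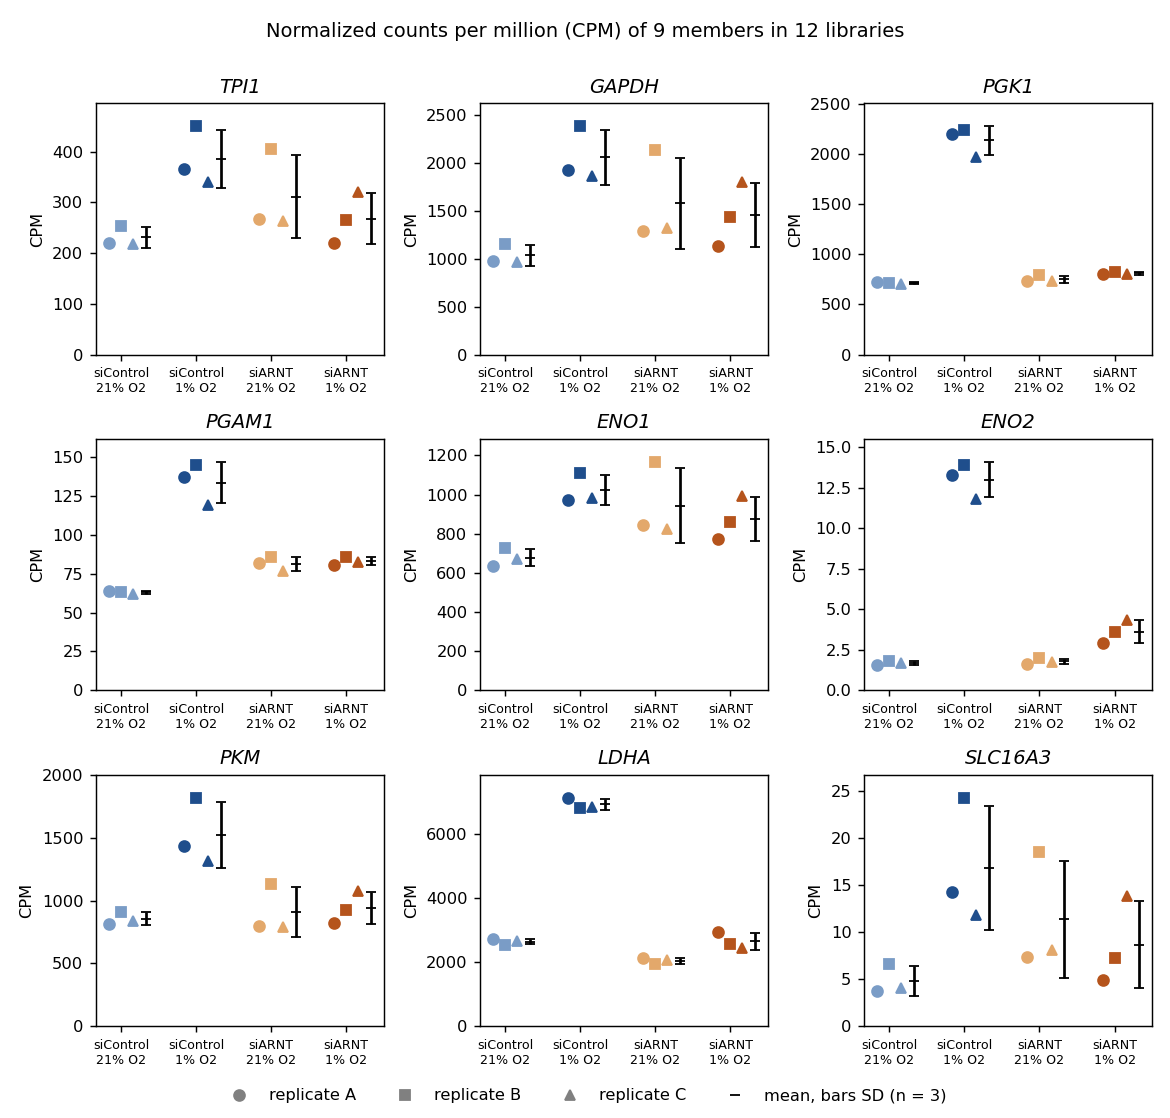
Normalized CPM (y axes, linear from 0) of the 9 tested members in the 4 groups (x axes), with 1 point per library, shaped by replicate letter, and the mean with SD (n = 3) beside them. Hypoxia siControl libraries lie above every normoxia siControl library for each gene, and normoxia siARNT replicate B lies above its group for GAPDH, TPI1, ENO1, PKM and SLC16A3.

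TPI1 encodes triosephosphate isomerase, which interconverts the 2 triose phosphates made by aldolase. Replicates A, B and C held 219.7, 254 and 219 CPM in normoxia siControl and 367, 450.3 and 341 CPM in hypoxia siControl. The groups did not overlap, and the log2 fold change was 0.74 (SE 0.183, adjusted p 0.0119). In siARNT the libraries held 267, 405 and 263 CPM in normoxia and 219, 265 and 321 CPM in hypoxia. These groups overlapped, and the log2 difference of -0.22 had a 95% interval of -0.62 to 0.18 and was 0.02 without normoxia siARNT replicate B.

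GAPDH encodes the dehydrogenase that forms bisphosphoglycerate and NADH, and its mRNA is often used as a loading control. It held 981, 1159.5 and 962 CPM in normoxia siControl and 1926, 2384 and 1864 CPM in hypoxia siControl. It rose 1.99-fold, a log2 change of 0.99 (SE 0.209, adjusted p 0.00479), and the groups did not overlap. In siARNT it held 1286, 2131 and 1319 CPM in normoxia and 1137, 1432 and 1799 CPM in hypoxia. Replicate B was the highest of the normoxia libraries, the groups overlapped, and the log2 difference was -0.12 (95% interval -0.57 to 0.34) with that library and 0.16 without it.

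PGK1 encodes phosphoglycerate kinase, the first ATP-forming step. Its values were among the tightest of the members: 725, 717 and 706 CPM in normoxia siControl and 2199, 2239.5 and 1976 CPM in hypoxia siControl, a log2 change of 1.58 (SE 0.06, adjusted p 3.65e-08). In siARNT it held 729.9, 792 and 734 CPM in normoxia and 799, 824 and 804 CPM in hypoxia. Every hypoxia library lay above every normoxia library here too, but the log2 change of 0.11 (SE 0.0587, adjusted p 0.333) was not called. PGK1 kept 6.7% of its siControl log2 change in siARNT.

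PGAM1 encodes phosphoglycerate mutase, which moves the phosphate group between carbons of phosphoglycerate. It held 63.5, 63.1 and 62.2 CPM in normoxia siControl and 137, 144 and 119 CPM in hypoxia siControl, with no overlap and a log2 change of 1.08 (SE 0.0729, adjusted p 2.34e-06). In siARNT it held 81.5, 85.4 and 76.4 CPM in normoxia and 80.7, 85.7 and 82.3 CPM in hypoxia. These 6 libraries lay close together, and the log2 difference was 0.03 (95% interval -0.13 to 0.19).

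The enolases ENO1 and ENO2 make phosphoenolpyruvate. ENO1 is the broadly expressed form, and ENO2 is best known from neurons. ENO1 held 637, 727 and 671 CPM in normoxia siControl and 974, 1111 and 981 CPM in hypoxia siControl, the smallest called change among the members at 0.59 (SE 0.132, adjusted p 0.0063). ENO2 held 1.54, 1.82 and 1.67 CPM in normoxia siControl and 13.3, 13.9 and 11.8 CPM in hypoxia siControl, the largest at 2.96 (SE 0.154, adjusted p 3.18e-07). Neither gene's siControl groups overlapped. In siARNT ENO2 held 1.65, 1.96 and 1.73 CPM in normoxia and 2.91, 3.58 and 4.36 CPM in hypoxia, again without overlap, and rose by 1.02 (SE 0.151, adjusted p 0.00555) on the log2 scale. In siARNT ENO1 held 842, 1166 and 823 CPM in normoxia and 775, 858 and 994 CPM in hypoxia, which overlapped, with a log2 difference of -0.11 that was 0.08 without normoxia siARNT replicate B. Despite its large change ENO2 remained a small part of enolase mRNA. Counted per transcript length, ENO2 made up 0.2 ± 0.00321% of ENO1 plus ENO2 in normoxia siControl and 1.02 ± 0.0649% in hypoxia siControl, and 0.154 ± 0.0168% and 0.331 ± 0.026% in the siARNT groups (SD, n = 3).

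PKM encodes the pyruvate kinase of most tissues, the second ATP-forming step. It held 815, 913 and 835 CPM in normoxia siControl and 1438, 1818 and 1312 CPM in hypoxia siControl, with no overlap and a log2 change of 0.83 (SE 0.159, adjusted p 0.00274). In siARNT it held 796, 1135 and 791 CPM in normoxia and 822, 928 and 1074 CPM in hypoxia, which overlapped, with a log2 difference of 0.05 (95% interval -0.29 to 0.40) that was 0.25 without normoxia siARNT replicate B.

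LDHA encodes the lactate dehydrogenase subunit that predominates in glycolytic tissue. Per transcript length its mean level was the highest of the members in 3 of the 4 groups. The exception was normoxia siARNT (1066 ± 49.6 CPM per kb against 1171 ± 355 for GAPDH, SD, n = 3). That exception rests on replicate B, where GAPDH held 2131 CPM against 1286 and 1319 in A and C. Per length LDHA (1.922 kb) lay above GAPDH (1.348 kb) in A and C. LDHA held 2709, 2544 and 2664 CPM in normoxia siControl and 7132, 6827 and 6832 CPM in hypoxia siControl, a log2 change of 1.39 (SE 0.0716, adjusted p 2.86e-07) with no overlap. In siARNT it held 2136, 1947 and 2061 CPM in normoxia and 2943, 2555 and 2447 CPM in hypoxia, again with no overlap, and rose by 0.37 (SE 0.0704, adjusted p 0.0192) on the log2 scale. LDHA and ENO2 were the 2 members that rose in hypoxia in siARNT, where 2.21% of all tested genes rose. The median log2 fold change there was 0.03 over the 9 members and -0.039 over all tested genes. They kept 26.6% and 34.5% of their siControl log2 changes. Both calls were lost when the fit used the 6 siARNT libraries alone (adjusted p 0.161 for LDHA and 0.0718 for ENO2), where 0.0918% of all tested genes rose, and the LDHA call was lost without normoxia siARNT replicate C, hypoxia siARNT replicate A or hypoxia siARNT replicate B (adjusted p 0.0597, 0.051 and 0.0606).

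LDHB encodes the other common subunit of lactate dehydrogenase. It held 1 count in 1 library and 0 in the other 11. A limit of 3 counts per library corresponds to 0.0356 to 0.0779 CPM, so LDHB was not detectable at this depth in either oxygen setting. Set against that limit and counted per transcript length, LDHA was at least 24760-fold higher than LDHB in every library. Of the 13 other coding genes within 500 kb of LDHB on chromosome 12, 9 stayed below 0.1 CPM in every library, among them the nearest on either side (SPX, GYS2, KCNJ8 and ABCC9). The other 4, GOLT1B, RECQL, PYROXD1 and CMAS, held 16.6 to 95.1 CPM.

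SLC16A3 encodes MCT4, a monocarboxylate transporter known for lactate export. It was the most variable member, with 3.75, 6.65 and 4.08 CPM in normoxia siControl and 14.2, 24.3 and 11.8 CPM in hypoxia siControl. The groups did not overlap, and the log2 change was 1.80 (SE 0.464, adjusted p 0.0144). The call was lost without normoxia siControl replicate A, normoxia siControl replicate C or hypoxia siControl replicate B (adjusted p 0.0625, 0.0593 and 0.0561), and with no filter on low counts (0.0745), where TPI1 also lost its call (0.0558). In siARNT SLC16A3 held 7.33, 18.5 and 8.14 CPM in normoxia and 4.93, 7.19 and 13.9 CPM in hypoxia, which overlapped, and the log2 difference was -0.39 with normoxia siARNT replicate B and 0.16 without it. SLC16A1, which encodes MCT1, another lactate transporter, held 190.0 to 233 CPM in the siControl libraries and was not called for hypoxia in siControl (log2 fold change -0.2, adjusted p 0.0626).

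**Figure D2:**
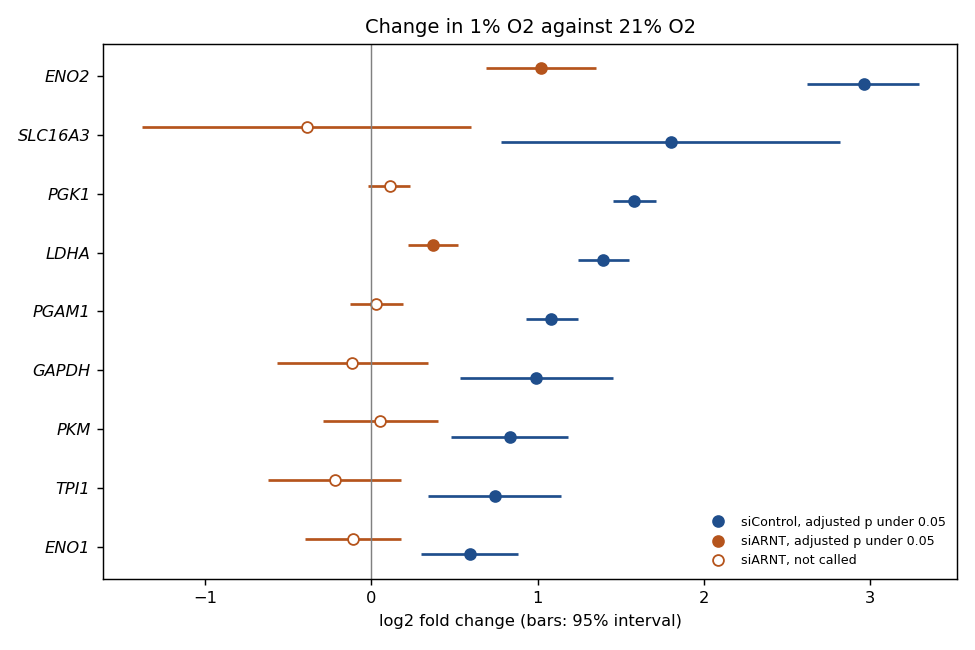
Log2 fold change of 1% O2 against 21% O2 (x axis) for each tested member (y axis), in siControl and in siARNT, with unadjusted 95% intervals. Filled points passed an adjusted p of 0.05 and open points did not. All 9 siControl points are filled, and in siARNT ENO2 at 1.02 and LDHA at 0.37 are.

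The difference between the 2 hypoxia changes was tested directly as an interaction. It was negative for all 9 tested members and was called for 4: PGK1 at -1.47 (SE 0.0834, adjusted p 4.59e-06), ENO2 at -1.94 (SE 0.212, adjusted p 0.000419), LDHA at -1.02 (SE 0.0996, adjusted p 0.000192) and PGAM1 at -1.05 (SE 0.102, adjusted p 0.000192), all on the log2 scale. Of all tested genes, 2.19% were called below 0. The median was -1.05 over the 9 members and -0.018 over all tested genes. These 4 were called under each of the 21 alternatives that were run. The remaining members had log2 differences of -2.19 (SLC16A3), -1.11 (GAPDH), -0.96 (TPI1), -0.78 (PKM) and -0.70 (ENO1), with adjusted p from 0.0561 to 0.0809. All 9 were called with a per-library correction for GC content, with DESeq2 and without hypoxia siARNT replicate C, settings under which 8.5%, 3.55% and 2.62% of all tested genes were called below 0. Without normoxia siARNT replicate B the 5 came to -1.64, -0.82, -0.71, -0.57 and -0.51 in that order and stayed uncalled, with adjusted p from 0.0507 to 0.104.

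With siARNT in hypoxia, 5 members fell, where 14.7% of all tested genes fell. The median log2 fold change was -0.69 over the 9 members and 0.023 over all tested genes. ENO2 changed by -1.85 (SE 0.146, adjusted p 3.06e-06), PGK1 by -1.40 (SE 0.0597, adjusted p 2.55e-08), LDHA by -1.39 (SE 0.0716, adjusted p 1.27e-07), PGAM1 by -0.69 (SE 0.0724, adjusted p 2.95e-05) and PKM by -0.69 (SE 0.159, adjusted p 0.00687). TPI1 (-0.52, adjusted p 0.0512), GAPDH (-0.50, 0.0955), SLC16A3 (-0.96, 0.14) and ENO1 (-0.22, 0.236) did not pass. With the GC correction all 9 fell, where 20.4% of all tested genes fell, and without hypoxia siARNT replicate C 8 did, where 12% of all tested genes fell.

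With siARNT in normoxia the members moved both ways, with a median log2 fold change of 0.37 over the 9 members and 0.011 over all tested genes. PGAM1 changed by 0.37 (SE 0.0723, adjusted p 0.00519) and ENO1 by 0.48 (SE 0.132, adjusted p 0.0273), 2 rises where 9.42% of all tested genes rose. LDHA changed by -0.37 (SE 0.0704, adjusted p 0.00443), 1 fall where 10.8% of all tested genes fell. The ENO1 call was lost without normoxia siARNT replicate B, normoxia siControl replicate A or normoxia siControl replicate C (adjusted p 0.0768, 0.109 and 0.0899), and without the first of these ENO1 came to 0.29. GAPDH at 0.61 (adjusted p 0.0584) and SLC16A3 at 1.24 (adjusted p 0.0746) were not called, and without normoxia siARNT replicate B they came to 0.32 and 0.68. TPI1 at 0.43 (adjusted p 0.107) and PKM at 0.09 (adjusted p 0.713) were not called either and came to 0.19 and -0.12 without it. PGK1 at 0.07 and ENO2 at 0.09 were not called and came to 0.02 and 0.0026 without it. With the GC correction LDHA came to -0.18 (adjusted p 0.0198), GAPDH was called at 0.35 (adjusted p 0.0149) and SLC16A3 came to 0.46 (adjusted p 0.0764), where 20.1% of all tested genes rose and 9.78% fell. The 2 siARNT comparisons and the 2 hypoxia comparisons share groups, so their values are not independent of each other.

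**Figure D3:**
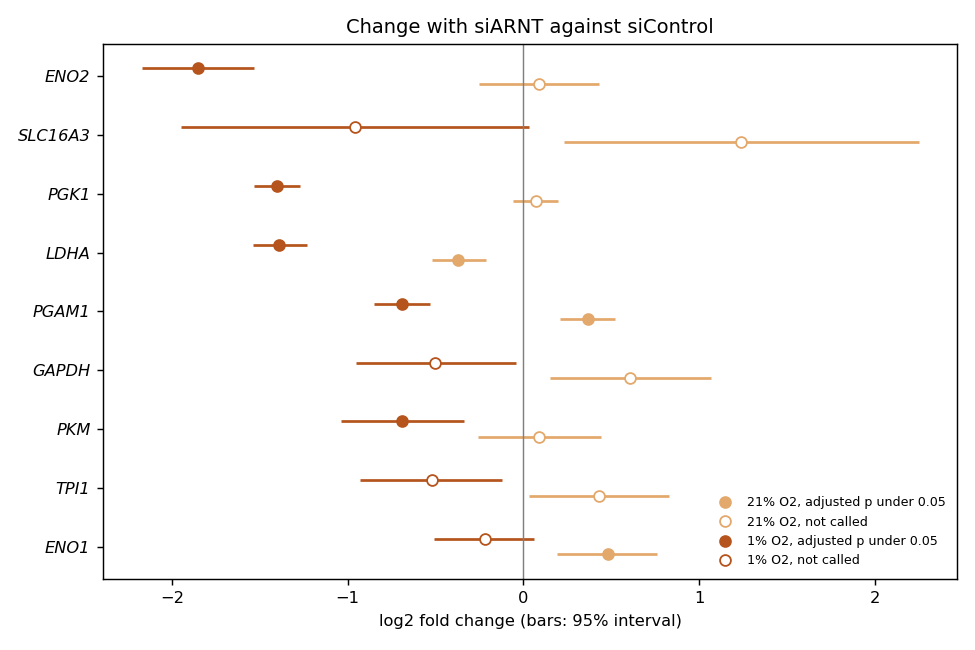
Log2 fold change of siARNT against siControl (x axis) for each tested member (y axis) at 21% and at 1% O2, with unadjusted 95% intervals and filled points where the adjusted p was under 0.05. At 1% O2 all 9 points lie below 0 and 5 are filled, and at 21% O2 LDHA at -0.37 lies below 0.

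Per transcript length, the order of the members in normoxia siControl ran from LDHA (1373 ± 44.2 CPM per kb) and GAPDH (767 ± 80.8) through ENO1 (329 ± 21.9), PKM (314 ± 19.1), TPI1 (188 ± 16.5) and PGK1 (146.5 ± 1.86) to PGAM1 (34.4 ± 0.393), SLC16A3 (2.34 ± 0.77) and ENO2 (0.658 ± 0.0532). The neighbours ENO1 and PKM differed by less than their SDs. In hypoxia siControl LDHA stood at 3606 ± 91.0 and GAPDH at 1527 ± 211 CPM per kb, followed by PKM (561 ± 96.9), ENO1 (496 ± 37.3) and PGK1 (438 ± 28.99), where PKM and ENO1 differed by less than the SD of PKM but by more than that of ENO1. The lengths are those of GENCODE 29 principal transcripts, and a gene with another dominant transcript would shift in this order.

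Alternative use of 2 neighbouring PKM exons gives the M1 and M2 forms of pyruvate kinase, of which M2 is the form known from proliferating cells. Both exons are 167 bases long and agree at 105 positions (62.9%) when set base against base, so reads that cross their junctions can be told apart. They are shown because the deposited event that separates them is the one PKM event with both forms in all libraries at an appreciable share. Sequences are from GENCODE 29 transcripts (GRCh38, minus strand, chr15:72203022-72203188 for M1 and chr15:72202454-72202620 for M2), written 5′ to 3′, and capitals mark the bases that differ:
M1: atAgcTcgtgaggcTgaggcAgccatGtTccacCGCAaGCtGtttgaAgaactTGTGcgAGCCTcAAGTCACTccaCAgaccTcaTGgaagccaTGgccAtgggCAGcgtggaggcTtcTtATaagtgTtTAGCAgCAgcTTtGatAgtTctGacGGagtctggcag
M2: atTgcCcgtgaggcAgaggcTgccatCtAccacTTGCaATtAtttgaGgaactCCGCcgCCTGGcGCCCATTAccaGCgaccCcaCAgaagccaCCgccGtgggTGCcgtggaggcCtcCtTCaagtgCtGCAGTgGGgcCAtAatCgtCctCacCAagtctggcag

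The event compares the donor of the M1 exon with that of the M2 exon, both joined to the next exon, of 182 bases. In the build of the event files, which no header names, the M1 exon lies at chr15:72495363-72495529 and the next exon at chr15:72492815-72492996. The exons were matched to GENCODE 29 by their lengths and spacing. M1 junction reads numbered 18 to 108 per library and M2 junction reads 185 to 986. The M1 share was 7.5%, 10.6% and 10.6% in normoxia siControl, 9.49%, 9.87% and 11.1% in normoxia siARNT, 10.9%, 7.62% and 9.38% in hypoxia siControl, and 8.47%, 12.4% and 9.04% in hypoxia siARNT. All 4 groups overlapped. The group means were 9.57 ± 1.79%, 10.2 ± 0.842%, 9.3 ± 1.64% and 9.97 ± 2.12% in that order (SD, n = 3).

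**Figure D4:**
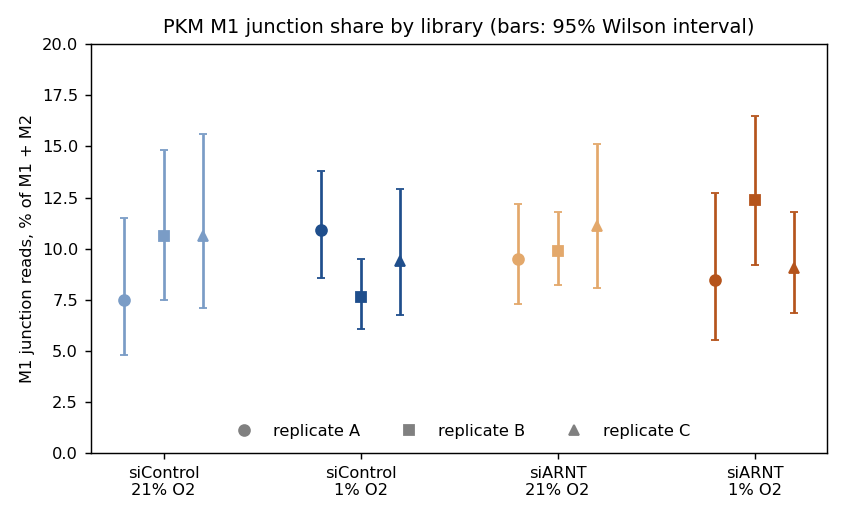
M1 junction reads as a percent of M1 plus M2 junction reads (y axis, from 0) in each library by group (x axis), with 95% Wilson intervals that cover counting error only. All 12 libraries lie between 7.5% and 12.4%, and the groups overlap.

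The log2 odds of M1 against M2 changed by -0.11 for hypoxia in siControl (unadjusted 95% interval -0.7 to 0.48), which leaves a change within these bounds possible. The interval is not a detection limit. A call needed an adjusted p under 0.05 over 37831 events, so a change beyond it could be missed as well. For hypoxia in siARNT the value was -0.01 (-0.45 to 0.43), for siARNT in normoxia 0.06 (-0.46 to 0.58), for siARNT in hypoxia 0.16 (-0.33 to 0.66) and for the interaction 0.1 (-0.68 to 0.88). Of the 7 PKM events, 5 had enough reads for a test, and edgeR's quasi-likelihood test called none in any of the 5 comparisons. No tested PKM event reached an unadjusted p of 0.05 in that fit, and limma on the logit of the share gave 1 such event for hypoxia in siARNT, for siARNT in hypoxia and for the interaction and called none. Among the 37831 tested events of all genes, 0.0291% were called for hypoxia in siControl, 0% for hypoxia in siARNT, 0.151% for siARNT in normoxia, 0.0899% for siARNT in hypoxia and 0% for the interaction. An exon skip had 4 to 9 skipping reads per library against 2596.5 to 6606 reads of inclusion. The rarer forms of the other 3 tested events rested on 336, 274 and 194 reads in 1 library each. The next exon of the M1 and M2 event had a mean coverage of 159.1 to 812.4, against 4412.2 to 11213.8 at the constant exon of another PKM event, so the M1 share rests on a small part of the PKM reads. The cause of that gap was not tested. Of 10 listed regulators of PKM splicing and related factors, SRSF2 fell in siControl hypoxia (log2 fold change -0.27, adjusted p 0.0239) and none rose. Among all tested genes 10.4% rose and 14.9% fell there. PTBP1, HNRNPA1 and HNRNPA2B1, known repressors of the M1 exon, had log2 values of 0.1, 0.06 and -0.16 that were not called. With siARNT 1 of the 10 rose and 2 fell in normoxia, and 2 rose and 2 fell in hypoxia. HNRNPA1 rose (0.26 in normoxia and 0.16 in hypoxia, adjusted p 0.00466 and 0.029). HNRNPA2B1 fell (-0.35 and -0.24, adjusted p 0.00239 and 0.0118), as did MBNL1 (-0.32 and -0.28, adjusted p 0.0154 and 0.019). NEK2 rose in hypoxia alone (0.3, adjusted p 0.012), and PTBP1 was at 0.44 and 0.09 and not called. Over all tested genes 9.42% rose and 10.8% fell with siARNT in normoxia, and 14.4% rose and 14.7% fell in hypoxia. For hypoxia in siARNT SRSF2 fell (-0.33, adjusted p 0.0399), where 1.89% of all tested genes fell.

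Around the members, the rest of the pathway was read from lists of related genes. Of 13 upper glycolysis genes 11 were tested, and in siControl hypoxia 8 rose and none fell, with a median log2 fold change of 1.12. Over all tested genes 10.4% rose and 14.9% fell in siControl hypoxia. ALDOC, an aldolase, rose by 2.06, SLC2A1, the glucose transporter GLUT1, by 1.94, and ALDOA by 1.6 on the log2 scale (adjusted p 1.04e-05, 1.35e-05 and 0.0047). In siARNT edgeR called none of the 11 for hypoxia, where 1 had an unadjusted p under 0.05 and DESeq2 called 1. Of all tested genes, edgeR called only 2.21% up and 1.89% down there. Of 9 genes of glycolytic control 7 were tested, and 2 rose and 2 fell in siControl hypoxia. PFKFB4 and PFKFB3, enzymes that set the level of an allosteric activator of phosphofructokinase, rose by 3.51 and 0.85, and TIGAR, a phosphatase that lowers that activator, changed by -1.01 (adjusted p 6.46e-06, 8.86e-05 and 0.00125). For hypoxia in siARNT 1 of these 7 was called by edgeR: GCKR, at a mean of 0.902 CPM over the 12 libraries, fell (-0.93, adjusted p 0.036).

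At the pyruvate branch point, 14 genes that pass pyruvate to mitochondria were all tested. In siControl hypoxia 3 rose and 6 fell, where 10.4% of all tested genes rose and 14.9% fell. PDK1, a kinase that inhibits pyruvate dehydrogenase, rose by 1.38 (adjusted p 2.76e-07) and PC, pyruvate carboxylase, by 1.37 (adjusted p 0.0319). MPC1, a subunit of the mitochondrial pyruvate carrier, changed by -0.82 (adjusted p 0.00014). In siARNT edgeR called none of the 14 for hypoxia, where 5 had an unadjusted p under 0.05 and DESeq2 called 0. Of all tested genes, edgeR called only 2.21% up and 1.89% down there. Of 10 genes of lactate and proton transport 7 were tested, with 1 rise and 2 falls in siControl hypoxia. CA9, a cell surface carbonic anhydrase, rose by 3.27, and SLC4A7 and CA12 changed by -0.78 and -0.34 (adjusted p 4.4e-07, 0.000261 and 0.0102). Of 10 other isozymes of the members 4 were tested, and LDHC changed by -0.8 in siControl hypoxia (adjusted p 0.00258). For hypoxia in siARNT edgeR called none of the 7 transport genes. Among the 4 isozymes it called PGAM4 up (1.97, adjusted p 0.0231), at a mean of only 0.406 CPM, and LDHC down (-0.68, adjusted p 0.0356).

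The 5 genes whose log2 CPM followed the mean of the tested members most closely over the 12 libraries, among 9844 candidates, were DDIT4 (Pearson r 0.993), PPP2R5B (0.989), KCTD11 (0.986), EFNA1 (0.985) and CA9 (0.984). These correlations describe 12 libraries that share the 4 groups and carry no test. DDIT4 stood at 38.3, 105, 45.1 and 48.5 CPM on average in normoxia siControl, hypoxia siControl, normoxia siARNT and hypoxia siARNT.

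Promoters are shown for the members with the largest and the smallest change in siControl hypoxia, ENO2 and ENO1, and for LDHA and PGK1, whose interaction was called, chosen after their values were seen. Each is the 250 bases before the RefSeq start (GRCh38.p14), 5′ to 3′ on the gene's strand, with matches to ACGTG or GCGTG on either strand in capitals. They lie at chr12:6914330-6914579 (plus strand), chr1:8878687-8878936 (minus strand), chr11:18394313-18394562 (plus strand) and chrX:78103998-78104247 (plus strand):
ENO2: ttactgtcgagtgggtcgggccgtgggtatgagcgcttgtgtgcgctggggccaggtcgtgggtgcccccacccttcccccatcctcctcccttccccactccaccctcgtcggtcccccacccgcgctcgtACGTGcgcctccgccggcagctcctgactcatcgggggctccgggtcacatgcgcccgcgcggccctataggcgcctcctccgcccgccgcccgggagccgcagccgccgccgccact
ENO1: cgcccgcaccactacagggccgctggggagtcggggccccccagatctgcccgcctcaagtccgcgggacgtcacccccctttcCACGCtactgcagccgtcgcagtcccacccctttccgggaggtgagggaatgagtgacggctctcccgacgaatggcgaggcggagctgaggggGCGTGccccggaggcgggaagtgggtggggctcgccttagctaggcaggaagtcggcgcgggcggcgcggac
LDHA: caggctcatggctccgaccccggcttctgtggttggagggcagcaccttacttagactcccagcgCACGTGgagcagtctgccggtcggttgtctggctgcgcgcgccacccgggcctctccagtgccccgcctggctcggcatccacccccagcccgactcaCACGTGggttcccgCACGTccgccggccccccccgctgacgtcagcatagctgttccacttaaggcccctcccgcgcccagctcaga
PGK1: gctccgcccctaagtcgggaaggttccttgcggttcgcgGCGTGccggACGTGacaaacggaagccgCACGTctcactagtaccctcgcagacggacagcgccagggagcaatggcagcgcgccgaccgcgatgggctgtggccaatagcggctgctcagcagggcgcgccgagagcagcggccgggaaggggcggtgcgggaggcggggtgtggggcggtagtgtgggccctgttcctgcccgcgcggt

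LDHA had 5 matches, counting both strands of a palindromic CACGTG separately, PGK1 had 3, ENO1 and GAPDH had 2 and ENO2 had 1. The windows of TPI1, PGAM1, PKM, LDHB and SLC16A3 had none (the interaction was called for PGAM1 too), which says only that these letters are not in these 250 bases. Such a match was present in 5 of the 10 members and in 54.2% of the promoters of tested genes (43.2% of all 35116 promoters in the table). At least 3 matches were present in 11.1% of the promoters of tested genes. A match is a description of the letters, not a binding site. The PGAM1 window lies inside the gene span given above and held 5 CpG dinucleotides, against a median of 24.5 over the members. Windows of other members, GAPDH, PGK1 and LDHB among them, lie inside their spans too. Starts upstream of these windows were not read.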

How the data were processed

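Gene files hold deposited counts, whole numbers of reads per gene ID made by the authors, and the submitters' processing notes name Trimmomatic, STAR 2.4.2a and GRCh38.p10. Per the labels' protocols, libraries were poly(A)-selected, stranded and single-end. Of 57820 gene IDs, 51996 matched a symbol. Without version numbers 52338 are in GENCODE 29, and 29842 carry its version number, so gene positions and lengths come from another release than the counts. Reads assigned to no gene (22.71 to 25.2% per library) stayed out of library sizes. Event files hold deposited junction counts, the deposited inclusion share as a fraction, and deposited mean exon coverage as a signal, per the file headers. The build of the event coordinates is not given in the sources used here.

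Genes were tested with edgeR 4.0.16 (R 4.3.3; TMM, filterByExpr, robust quasi-likelihood fit to all 12 samples), with Benjamini-Hochberg adjustment over all 16999 genes. Alternatives used DESeq2 1.42.0 and limma 3.58.1. The SE of a log2 fold change was computed as its size over the square root of the F statistic. On counts simulated for hypoxia in siControl over 16999 genes, 89.0% of 2-fold and 64.6% of 1.5-fold changes were recovered, with 6.71% of calls false. The simulation gave every gene the same spread between replicates and held no GC effect. These rates may not hold for members of larger spread, such as SLC16A3.

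Events needed at least 20 informative reads in every sample and 10 of the rarer form in all. Inclusion and exclusion counts were tested in edgeR with a term per sample. The dispersion was not part of the design that was set at the start. It was put at 0 after the estimated-dispersion fit recovered 0% of 200 simulated events and after calls on the real data had been seen, and 5 other settings of dispersion or fitting method were tried in all. The simulated spread between replicates was changed in the same step, so both were then varied separately. With a beta precision of 100, dispersion 0 recovered 64% of the simulated events (5.19% of calls false) and estimated dispersion 0%. With a precision of 500 they recovered 89.5% (5.29% false) and 62.5%. None of these settings called a PKM event. The simulated shifts went only into well-read events of intermediate share. They were larger than any change within the PKM M1 intervals, so the recovery rates do not say how often a smaller PKM change would be found.

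The members and lists were chosen with earlier results of these data known. Named genes were all 10 members, the 3 called list genes of at least 1 CPM with the largest change for hypoxia in siControl, the 5 genes of at least 5 CPM most like the members, and all tested PKM events, and other genes were chosen after their values were seen. Intervals cover counting error only where they are Wilson intervals. Replicate letters were checked as pairs: correlations of same-letter deviations ran from -0.402 to 0.505, so they were not treated as pairs. Protein sequences were not used here. Member-named pseudogenes (101 IDs) held at most 2.05% of their member's counts, LDHB aside. Reads without a unique alignment (14.45 to 15.14% per library) were in no gene's counts. A read that aligns to both a member and a pseudogene would thus be missing from both, and how many were lost was not tested.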

Additional observations from a re-analysis of the deposited data

Results flagged for a closer look

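The hypoxia change differed between siARNT and siControl by the test of the difference itself (edgeR quasi-likelihood interaction term) for PGK1 (-1.47 on the log2 scale, adjusted p 4.59e-06), ENO2 (-1.94, adjusted p 0.000419), LDHA (-1.02, adjusted p 0.000192) and PGAM1 (-1.05, adjusted p 0.000192). Of all tested genes, 2.19% were called below 0 for the interaction. The 3 replicates of hypoxia siARNT lay below all 3 of hypoxia siControl for each of these 4 genes. The same held for TPI1, GAPDH and PKM, whose interaction was not called, so this separation does not set the 4 apart. Its share over all tested genes was not computed.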

How the results depend on the processing

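The count of called members for hypoxia in siControl was 8 to 9 when replicates were left out singly. For hypoxia in siARNT it was 2, 0 with only the 6 samples compared, and 1 to 2 with replicates left out. For siARNT in normoxia it was 3, 5 with the replicate block, 7 with the GC correction and the replicate block together, and 2 to 4 with replicates left out. For siARNT in hypoxia it was 5, 9 with the GC correction, 9 with the GC correction and the replicate block, and 5 to 8 with replicates left out. For the interaction it was 4, 9 with the replicate block, the GC correction, both together or DESeq2, and 4 to 9 with replicates left out. The number of genes called over all genes moved too. For siARNT in normoxia it was 3431, 4732 with the block, 5613 with the GC correction and the block, and 1571 to 3437 with replicates left out. For siARNT in hypoxia it was 4948, 7349 with the GC correction, 7685 with the block added, and 3537 to 4519 with replicates left out. For the interaction it was 797, 960 with the block, 2252 with the GC correction, 2647 with both, 1026 with DESeq2, and 272 to 1188 with replicates left out. For hypoxia in siARNT it was 696, 22 with only the 6 samples compared, and 129 to 454 with replicates left out. It was 3223 with the GC correction and 3676 with the replicate block added. With libraries of the same siRNA and letter taken as 1 transfected well it was 136, and 373 for the interaction. In that fit 2 and 4 members were called. For hypoxia in siControl it was 4299, 6616 with the GC correction, 6961 with the replicate block added, and 2873 to 3805 with replicates left out. The letters share only a number, so either block is a description.

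No member that was called changed sign under any alternative. Among values that were not called, in siARNT hypoxia GAPDH turned to 0.01 with the GC correction and 0.02 with the block added, and PGK1 to -0.0041 with the GC correction. For siARNT in normoxia ENO2 turned to -0.08 and PKM to -0.1 with the GC correction, with or without the block. With replicates left out, values for hypoxia in siARNT ran from -0.37 to 0.02 (TPI1), -0.3 to 0.16 (GAPDH), -0.01 to 0.08 (PGAM1), -0.21 to 0.08 (ENO1), -0.05 to 0.25 (PKM) and -0.91 to 0.16 (SLC16A3), and PKM for siARNT in normoxia from -0.12 to 0.18. The PKM M1 log2 odds ran from -0.27 to 0.12, -0.19 to 0.12, -0.1 to 0.16, -0.06 to 0.32 and -0.12 to 0.27 over the 5 comparisons in the order given above. PKM events called stayed at 0 in all 76 combinations of comparison and alternative, which include the 5 dispersion and fitting settings added after the data were seen. The count over events of all genes did depend on these settings: for siARNT in normoxia it was 57, 0 with estimated dispersion, 91 with the newer quasi-likelihood method at dispersion 0 and 391 with the replicate block. The causes of these shifts were not tested. Depth limits LDHB and the PKM junctions.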

Other observations

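GAPDH changed with its pathway, so ratios to it differ from CPM. Against GAPDH, the log2 ratio in siControl hypoxia minus that in normoxia was 0.4 for LDHA, 0.59 for PGK1 and 1.96 for ENO2, and -0.4 for ENO1, -0.25 for TPI1 and -0.17 for PKM, so genes that rose in CPM lay lower relative to GAPDH. Against ACTB, which was not called (log2 fold change -0.09, adjusted p 0.615), the same differences were 1.48, 1.66, 3.04, 0.68, 0.82 and 0.91. Of 15 common reference genes none rose in siControl hypoxia, and HPRT1 and TFRC were among those that fell (log2 fold changes -0.26 and -0.26, adjusted p 0.0372 and 0.0477). Among all tested genes 10.4% rose and 14.9% fell there.

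TPI1, GAPDH and ENO2 lie within 389.8 kb on chromosome 12 (GRCh38, chr12:6533927-6923698). Of the 20 other coding genes in this stretch 14 were tested, and in siControl hypoxia 2 rose and 3 fell, with a median log2 fold change of -0.03. Among all tested genes 10.4% rose and 14.9% fell there. The highest of the 14 was LPAR5 at 0.56.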
